A study of Homo sapiens with 8 samples.

Results

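The S phase and DNA replication genes described here are 45 genes chosen by name for their known roles in copying DNA, of 28590 loci in the expression tables. Of the 45, 38 have a locus of their own and are described below. All 38 passed the filter on low values (at least 1 FPKM in at least 2 of 8 libraries), and none was at 0 in any library. The other 7 (CDC6, PRIM1, FEN1, E2F1, CHEK1, SLBP and UNG) are counted only in loci merged with a neighbouring gene, whose value cannot be split. FPKM is fragments per kilobase of transcript, scaled to the mapped fragments of the library, so levels can be compared between genes.

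RNA was sequenced from H1703, an established human lung cancer line that the labels call squamous carcinoma cells, in 4 groups of 2 libraries that the series describes as biological repeats. Control cells carried a knockdown of luciferase, which human cells lack, and the others a knockdown of SPIB, an ETS-family transcription factor known mainly from B cells. Each genotype was taken attached or floating, and floating cells are called detached here, since the series describes them as detached from the extracellular matrix. Every sample, whether attached or floating, carries a treatment note of 12 h floating. How the knockdown was made is not stated in these sources. SPIB is counted only in a locus merged with POLD1, so the knockdown could not be checked and the groups are named by their labels. P-values rest on the spread among these 8 libraries.

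Cells license replication origins in G1 by loading the MCM2 to MCM7 ring onto DNA with the origin recognition complex, CDC6 and CDT1. At the start of S phase the ring is turned into an active helicase by CDC45 and GINS, and polymerases, clamp, clamp loader and nucleotide-making enzymes then copy the DNA. Many of these genes are transcribed by E2F factors late in G1, and their mRNA is higher in cycling than in resting cells.

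Of the 38 members, 32 had a promoter sequence in the RefSeq table (GRCh38.p14), a window of 300 bases from 250 before to 50 after the gene start. Not matched were MCM4, MCM5, GINS4, CCNE2, RPA2 and RPA3. The windows were searched on both strands for 4 E2F words, namely TTCCCGC, as well as TTCGCGC, further TTGGCGC and finally TTGCCGC, for CCAAT, which NF-Y binds, and for the word of the CHR (cell cycle homology region), spelled either TTTGAA or, in its other form, TTCGAA. The words were counted wherever they stood, overlaps included. An E2F word stood in 25 of the 32 windows (78.1%), against 13.1% of all 27305 promoters and 21.7% of the 7505 tested genes with a promoter. CCAAT stood in 19 of 32 (59.4%) against 35.7% of all promoters, and a CHR word in 2 of 32 (6.25%) against 16.6%. Of the tested genes with a promoter, 37.2% held CCAAT and 10.5% a CHR word. The same search on a list of mitosis genes found an E2F word in 35.1% and a CHR word in 67.6%. A match is only a run of letters. Shown here are the 250 bases before the start of MCM6, which holds the most E2F words, of CDC25A, RRM2 and TYMS, which had the largest or steadiest differences on detachment, and of ORC1, which holds E2F words and did not pass the test. They were chosen after their values were seen. Each reads 5′ to 3′ toward the gene, with E2F words and CCAAT in capitals on either strand.
MCM6, chr2:135876444-135876693, minus strand: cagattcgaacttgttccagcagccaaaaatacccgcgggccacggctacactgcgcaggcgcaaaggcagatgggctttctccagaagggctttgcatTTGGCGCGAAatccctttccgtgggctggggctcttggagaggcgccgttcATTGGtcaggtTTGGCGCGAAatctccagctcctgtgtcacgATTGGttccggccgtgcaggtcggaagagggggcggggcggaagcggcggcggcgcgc
CDC25A, chr3:48188418-48188667, minus strand: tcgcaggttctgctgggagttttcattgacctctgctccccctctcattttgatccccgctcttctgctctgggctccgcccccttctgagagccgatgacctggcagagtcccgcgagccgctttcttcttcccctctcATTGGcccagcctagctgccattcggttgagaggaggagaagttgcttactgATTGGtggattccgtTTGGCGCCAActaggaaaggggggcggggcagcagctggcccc
ORC1, chr1:52404424-52404673, minus strand: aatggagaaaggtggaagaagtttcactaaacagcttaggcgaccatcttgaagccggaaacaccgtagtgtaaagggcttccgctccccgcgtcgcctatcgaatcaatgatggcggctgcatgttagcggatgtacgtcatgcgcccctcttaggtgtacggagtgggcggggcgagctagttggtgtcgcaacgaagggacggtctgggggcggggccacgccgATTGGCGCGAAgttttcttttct
TYMS, chr18:657403-657652, plus strand: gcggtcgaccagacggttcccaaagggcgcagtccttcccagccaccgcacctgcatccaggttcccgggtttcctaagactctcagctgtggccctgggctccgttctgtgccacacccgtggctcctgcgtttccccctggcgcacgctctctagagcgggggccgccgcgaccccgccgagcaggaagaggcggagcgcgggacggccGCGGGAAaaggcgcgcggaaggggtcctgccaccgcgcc
RRM2, chr2:10122489-10122738, plus strand: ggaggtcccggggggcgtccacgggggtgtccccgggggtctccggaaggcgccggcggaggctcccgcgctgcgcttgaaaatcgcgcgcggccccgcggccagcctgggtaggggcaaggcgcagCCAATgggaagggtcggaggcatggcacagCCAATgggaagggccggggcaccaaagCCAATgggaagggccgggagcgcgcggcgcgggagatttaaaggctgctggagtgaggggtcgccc

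In MCM6 a pair of overlapping E2F words on opposite strands began 151 and 148 bases before the start, and a second pair 89 and 86 bases before it. CDC25A held such a pair 43 and 40 bases before the start, and ORC1 held one at 22 and 19 bases that also overlapped an inverted CCAAT. TYMS had a lone inverted word 39 bases before the start. RRM2 had no E2F word in this window and 3 copies of CCAAT, at 123, 93 and 66 bases before the start.

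Many of these genes had lower FPKM in detached than in attached cells. With both genotypes averaged, 4 detached against 4 attached libraries, 19 of 38 members fell and 0 rose (limma on log2(FPKM + 1), adjusted p under 0.05 over all 13438 genes and loci tested). Of all tested, 10.1% fell and 5.48% rose in that comparison. The members' median level was 41.1 FPKM, against 12.8 FPKM over all tested genes. Their median absolute log2 difference between replicates was 0.07 to 0.09, against 0.10 to 0.11. What part level and spread have in the share called was not tested. The members' median log2 fold change was −0.19, a fall of 12.5% on the FPKM + 1 scale, within a range of −0.52 to 0.02, and 37 of 38 values were negative. The median of all tested genes was −0.01. For 17 members all 4 detached libraries lay below all 4 attached ones, as for 11.6% of all tested. In these bulk samples fewer cells in S phase and less RNA per cell cannot be told apart.

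**Figure D1:**
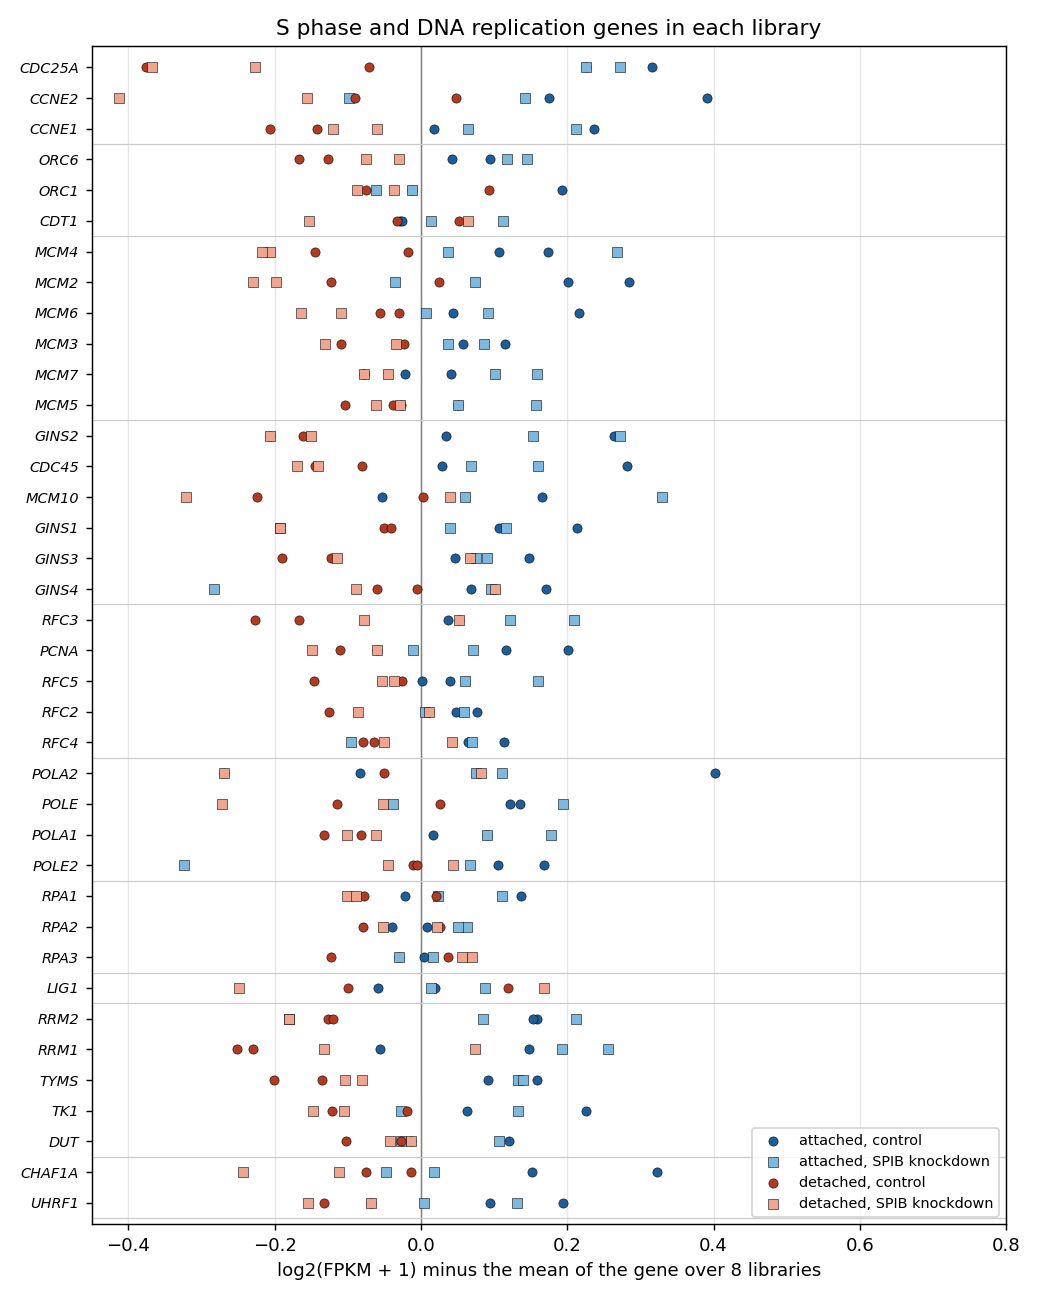
Each row is a member and each point a library, plotted as log2(FPKM + 1) minus that gene's mean over 8 libraries; circles are control and squares SPIB-knockdown cells, blue attached and red detached. Blue points lie to the right for most genes: 36 of 38 members were highest in an attached library.

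The shift was shared by libraries of both genotypes. The median deviation of the 38 members from their means was 0.05 for attached control 1 and 0.15 for attached control 2, and 0.06 and 0.11 for the attached SPIB-knockdown replicates. Detached control replicates had −0.11 and −0.06, and detached SPIB-knockdown replicates −0.11 and −0.07. Attached control library 2 held the highest value of 20 members, the most of any library. In attached cells the members moved together between replicates too: 33 and 30 of 38 were higher in replicate 2 of the control and SPIB-knockdown groups. In each detached group 24 of 38 were. The same was not counted over all tested genes. The members' median had a pooled SD of 0.0451 log2 between replicates. Over the 4 libraries with the mitochondrial locus listed at 0, 1 of each group, the members' median detachment difference was −0.20 with 35 of 38 negative. Over the other 4 libraries it was −0.16 with 36 negative. The split was chosen after seeing the data. It divides the same 8 libraries, so it gives no separate support.

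**Figure D2:**
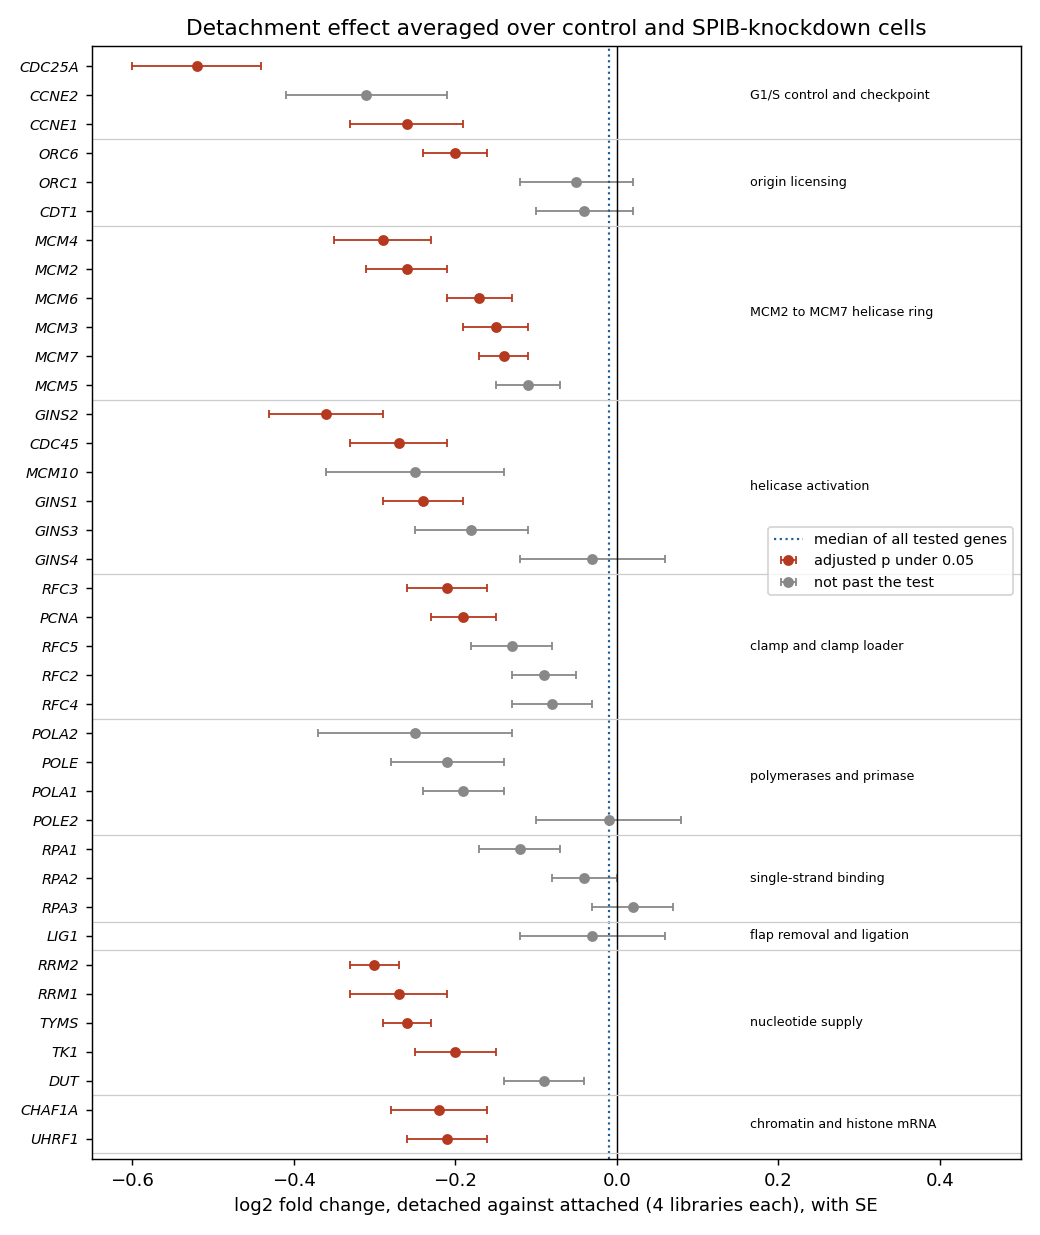
The log2 fold change of each member on detachment, averaged over both genotypes, is drawn with its SE and grouped by role; red points passed the adjusted test, grey ones did not, and the dotted line is the median of all tested genes at −0.01. CDC25A stands farthest to the left at −0.52, and the points of RPA2, RPA3, LIG1, GINS4 and POLE2 lie near 0.

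Among genes of the G1/S transition, CDC25A, the phosphatase that activates CDK2, had the largest change of the 38. It had 14.6 and 15.6 FPKM in attached control libraries, 14.6 and 15.1 in attached SPIB-knockdown, 9.28 and 11.7 in detached control and 9.34 and 10.4 in detached SPIB-knockdown libraries. Every detached library was below every attached one. CDC25A fell from 15.0 ± 0.491 to 10.2 ± 1.12 FPKM (SD, n = 4 libraries each), a log2 fold change of −0.52 ± 0.08 (SE) with limma's adjusted p of 0.00671. CCNE1, encoding the cyclin E1 that drives CDK2, read 14.3 and 16.8 in attached control, 14.8 and 16.5 in attached SPIB-knockdown, 12.7 and 12.1 in detached control and 13.5 and 12.9 FPKM in detached SPIB-knockdown libraries. Its detached libraries also lay below all attached ones, and it fell (log2 −0.26 ± 0.07, limma adjusted p = 0.0412). CCNE2, for cyclin E2, had 12.0 and 14.1 in attached control, 9.75 and 11.7 in attached SPIB-knockdown, 10.9 and 9.81 in detached control and 7.65 and 9.33 FPKM in detached SPIB-knockdown libraries. Those groups overlapped, and its log2 fold change of −0.31 ± 0.10 missed the threshold (adjusted p = 0.072). CDC25A passed without each library in turn, whereas CCNE1 passed only without attached control 1 and reached an adjusted p of 0.12 without detached control 2.

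Of the origin licensing genes, ORC6, the smallest subunit of the origin recognition complex, fell (log2 −0.20 ± 0.04, limma adjusted p = 0.0219). It read 23.4 and 24.3 FPKM in attached control, 25.2 and 24.7 in attached SPIB-knockdown, 20.7 and 20.1 in detached control and 22.2 and 21.5 in detached SPIB-knockdown libraries. All detached libraries were below all attached ones. ORC1, an ATP-binding subunit of the same complex, had 10.2 to 12.6 FPKM (log2 −0.05 ± 0.07, adjusted p = 0.68). CDT1, which brings the MCM ring to origins, had 35.7 to 43.1 FPKM (log2 −0.04 ± 0.06, adjusted p = 0.726). Attached and detached libraries overlapped for both. The ORC6 call was kept only without attached control 1 or detached SPIB-knockdown 1, with an adjusted p of up to 0.0769 without detached control 2.

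The 6 subunits of the MCM2 to MCM7 ring, the core of the replicative helicase, all had lower means in detached cells, and 5 passed the test. MCM2 read 100 and 106 FPKM in attached control, 84.7 and 91.5 in attached SPIB-knockdown, 79.7 and 88.4 in detached control and 73.9 and 75.6 in detached SPIB-knockdown libraries. Within each genotype the detached libraries were lower, while the attached knockdown and detached control ranges overlapped. MCM2 fell by a log2 of 0.26 ± 0.05 (limma adjusted p = 0.011), and it passed without each library in turn. MCM4 had 168 and 176 in attached control, 160 and 188 in attached SPIB-knockdown, 141 and 154 in detached control and 135 and 134 FPKM in detached SPIB-knockdown libraries, with no overlap between attached and detached. It fell most of the ring, by a log2 of 0.29 ± 0.06 (limma adjusted p = 0.0146, and 0.0547 without attached control 2).

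MCM7 had 180 and 188 FPKM in attached control, 196 and 204 in attached SPIB-knockdown, 173 and 173 in detached control and 177 and 173 in detached SPIB-knockdown libraries. Its detached values were close together and below all attached ones (log2 −0.14 ± 0.03, limma adjusted p = 0.0173). MCM6 read 118 and 133 in attached control, 115 and 122 in attached SPIB-knockdown, 112 and 110 in detached control and 102 and 106 FPKM in detached SPIB-knockdown libraries (log2 −0.17 ± 0.04, limma adjusted p = 0.0383). MCM3 read 146 and 152, 144 and 149, 130 and 138, and 128 and 137 FPKM in the same order of groups (log2 −0.15 ± 0.04, limma adjusted p = 0.0316). Neither overlapped between attached and detached libraries. MCM5 did not pass, with 97.6 and 103 in attached control, 103 and 111 in attached SPIB-knockdown, 92.5 and 96.8 in detached control and 95.3 and 97.5 FPKM in detached SPIB-knockdown libraries (log2 −0.11 ± 0.04, adjusted p = 0.0868). Its detached libraries, too, were all below the attached ones, by a narrow margin. Without detached control 2, the adjusted p was 0.109 for MCM6 and 0.058 for MCM7, and without attached control 2 it was 0.0989 for MCM3. Quantile normalization ended those 3 calls, with log2 values of −0.08 for MCM6 (adjusted p = 0.265), −0.06 for MCM7 (0.191) and −0.07 for MCM3 (0.28).

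Although the ring holds the subunits in equal number, their mRNA levels were not equal. Mean FPKM over the 8 libraries was 183 for MCM7, 157 for MCM4, 141 for MCM3, 115 for MCM6, 99.5 for MCM5 and 87.5 for MCM2, a 2.09-fold span. The ranges of neighbours in that order overlapped, but within a library MCM7 was above MCM4, MCM3 above MCM6 and MCM6 above MCM5 in 8 of 8 libraries.

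**Figure D3:**
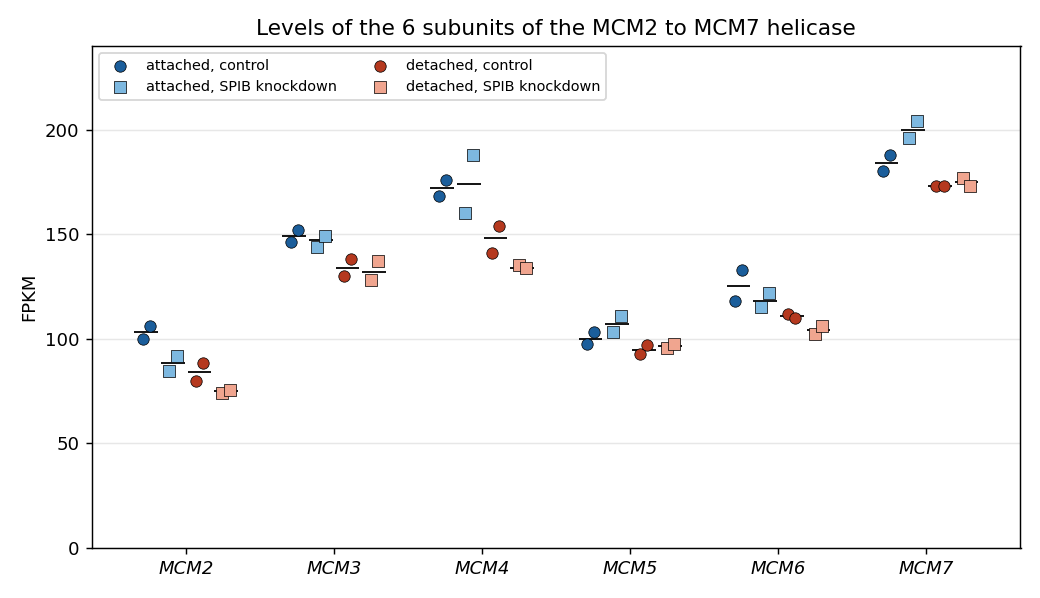
FPKM of the 6 MCM2 to MCM7 subunits in each library, with lines at the group means and the axis starting at 0; circles are control and squares SPIB-knockdown cells, blue attached and red detached. MCM7 spans 173 to 204 and MCM2 73.9 to 106 FPKM, and the red points lie below the blue ones of the same genotype.

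Helicase activation joins CDC45 and the GINS complex of 4 subunits to the ring, with MCM10 needed to start unwinding. GINS2 had 14.0 and 16.6 FPKM in attached control, 15.3 and 16.7 in attached SPIB-knockdown, 12.1 and 11.7 in detached control and 12.2 and 11.7 in detached SPIB-knockdown libraries. It fell by a log2 of 0.36 ± 0.07 (limma adjusted p = 0.0143), the second largest change of the 38, with all detached libraries below all attached ones. GINS1 read 14.5 and 15.7 in attached control, 13.8 and 14.6 in attached SPIB-knockdown, 12.9 and 13.0 in detached control and 11.6 and 11.6 FPKM in detached SPIB-knockdown libraries (log2 −0.24 ± 0.05, limma adjusted p = 0.0249). CDC45 read 38.7 and 46.3, 39.8 and 42.5, 34.2 and 35.8, and 33.6 and 34.3 FPKM in the same order (log2 −0.27 ± 0.06, limma adjusted p = 0.027). Neither overlapped between attached and detached cells. GINS3, with 7.3 to 9.49 FPKM (log2 −0.18 ± 0.07, adjusted p = 0.124), and MCM10, with 26.4 to 42.0 FPKM (log2 −0.25 ± 0.11, adjusted p = 0.158), did not pass. GINS4 differed least (log2 −0.03 ± 0.09, adjusted p = 0.873), and its level of 53.1 FPKM was 3.85 times that of GINS2, its partner in the complex. Without detached control 2 the adjusted p was 0.0526 for GINS2, 0.0747 for GINS1 and 0.0656 for CDC45. Of the 8 fits without 1 library, GINS2 passed in 7, GINS1 in 2 and CDC45 in 1, and CDC45 also missed under quantile normalization (0.0656) and without the filter (0.0703).

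PCNA, the sliding clamp that holds polymerases on DNA, read 130 and 138 FPKM in attached control, 119 and 126 in attached SPIB-knockdown, 115 and 111 in detached control and 108 and 115 in detached SPIB-knockdown libraries. All detached libraries were below all attached ones, and PCNA fell by a log2 of 0.19 ± 0.04 (limma adjusted p = 0.0199). RFC3, a subunit of the clamp loader, had 18.7 and 18.9 in attached control, 19.9 and 21.2 in attached SPIB-knockdown, 15.4 and 16.1 in detached control and 17.2 and 18.9 FPKM in detached SPIB-knockdown libraries. It fell (log2 −0.21 ± 0.05, limma adjusted p = 0.0373) although the highest detached library touched the attached range. The other loader subunits did not pass: RFC5 (log2 −0.13 ± 0.05), RFC2 (−0.09 ± 0.04) and RFC4 (−0.08 ± 0.05), with adjusted p of 0.114, 0.195 and 0.307. RFC3 lost its call without any 1 of the 8 libraries, with adjusted p between 0.0501 and 0.105, and PCNA without attached control 2 (0.0677), attached SPIB-knockdown 2 (0.0601), detached control 2 (0.0707) or detached SPIB-knockdown 1 (0.0594). Under quantile normalization PCNA had a log2 of −0.10 (adjusted p = 0.137).

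No member among the polymerase, single-strand binding and ligase genes passed in this fit. POLA1, the catalytic subunit of the primer-making polymerase alpha, came closest, with 14.2 and 15.0 FPKM in attached control, 15.0 and 16.0 in attached SPIB-knockdown, 13.2 and 12.7 in detached control and 13.0 and 13.4 in detached SPIB-knockdown libraries. Its detached libraries were all lower (log2 −0.19 ± 0.05, limma adjusted p = 0.0531). POLA2, its regulatory subunit and here the sum of loci of the same symbol, had a log2 fold change of −0.25 ± 0.12 (adjusted p = 0.213), and POLE, the catalytic subunit of the leading-strand polymerase, −0.21 ± 0.07 (adjusted p = 0.1, and 0.0381 with a replicate block). POLE2, the second subunit of that polymerase, read 10.5 and 10 in attached control, 9.72 and 7.17 in attached SPIB-knockdown, 9.15 and 9.19 in detached control and 8.92 and 9.55 FPKM in detached SPIB-knockdown libraries. Its lowest value was an attached library, and its log2 fold change was −0.01 ± 0.09 (adjusted p = 0.957).

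RPA coats single-stranded DNA at the fork. RPA1, its large subunit, had 89.5 and 100 FPKM in attached control, 92.4 and 98.2 in attached SPIB-knockdown, 92.2 and 86.1 in detached control and 84.7 and 85.4 in detached SPIB-knockdown libraries, which overlapped (log2 −0.12 ± 0.05, adjusted p = 0.119). RPA2 had a log2 fold change of −0.04 ± 0.04 (adjusted p = 0.547). RPA3, the smallest subunit, read 41.0 and 42.0, 42.4 and 41.0, 38.4 and 43.0, and 43.6 and 44.0 FPKM in the same order, and its log2 fold change of 0.02 ± 0.05 was the only one above 0. LIG1, the ligase that seals Okazaki fragments, had 44.2 and 46.7 in attached control, 49.0 and 46.5 in attached SPIB-knockdown, 42.9 and 50.1 in detached control and 38.6 and 51.9 FPKM in detached SPIB-knockdown libraries. Its detached libraries spanned the attached ones (log2 −0.03 ± 0.09, adjusted p = 0.859).

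Nucleotide supply held the members with the lowest adjusted p. RRM2, the subunit of ribonucleotide reductase made in S phase, had 238 and 237 FPKM in attached control, 247 and 226 in attached SPIB-knockdown, 195 and 196 in detached control and 188 and 188 in detached SPIB-knockdown libraries. A wide gap parted the detached from the attached libraries, and RRM2 fell from 237 ± 8.79 to 192 ± 3.87 FPKM (SD, n = 4 each; log2 −0.30 ± 0.03, limma adjusted p = 0.00204). TYMS, thymidylate synthase, read 211 and 221 in attached control, 217 and 218 in attached SPIB-knockdown, 180 and 172 in detached control and 187 and 184 FPKM in detached SPIB-knockdown libraries. It too was lower in every detached library, from 217 ± 4.21 to 181 ± 6.52 FPKM (SD, n = 4 each; log2 −0.26 ± 0.03, limma adjusted p = 0.0021). Both passed without each library in turn.

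RRM1, the large subunit of ribonucleotide reductase, had 52.8 and 45.7 FPKM in attached control, 54.5 and 57.0 in attached SPIB-knockdown, 40.4 and 39.8 in detached control and 43.3 and 50.1 in detached SPIB-knockdown libraries. The groups overlapped across genotypes, but within each genotype the detached libraries were lower (log2 −0.27 ± 0.06, limma adjusted p = 0.0298). TK1, the thymidine kinase of the salvage route, read 199 and 223 in attached control, 187 and 209 in attached SPIB-knockdown, 175 and 188 in detached control and 172 and 177 FPKM in detached SPIB-knockdown libraries (log2 −0.20 ± 0.05, limma adjusted p = 0.0435). Its highest detached library lay just above its lowest attached one. DUT, which removes dUTP, had 95.9 to 112 FPKM and did not pass (log2 −0.09 ± 0.05, adjusted p = 0.212). Without detached control 2 the adjusted p was 0.0898 for RRM1 and 0.0739 for TK1, and under quantile normalization TK1 had a log2 of −0.12 (adjusted p = 0.164). RRM2, TYMS and TK1 had mean levels of 214, 199 and 191 FPKM, the highest of the 38, and RRM1 was 4.47-fold below RRM2.

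The chromatin genes both fell. UHRF1, which guides maintenance methylation to newly copied DNA, had 45.1 and 48.4 FPKM in attached control, 42.3 and 46.3 in attached SPIB-knockdown, 38.4 and 40.2 in detached control and 40.2 and 37.8 in detached SPIB-knockdown libraries, with no overlap (log2 −0.21 ± 0.05, limma adjusted p = 0.0279). CHAF1A, a subunit of the histone chaperone that works behind the fork, read 36.2 and 40.9 in attached control, 31.4 and 32.9 in attached SPIB-knockdown, 32.2 and 30.8 in detached control and 30.0 and 27.3 FPKM in detached SPIB-knockdown libraries. Its attached knockdown and detached control values overlapped (log2 −0.22 ± 0.06, limma adjusted p = 0.0368). Without detached control 2 the adjusted p was 0.0636 for UHRF1 and 0.112 for CHAF1A.

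By role, the members that fell were 5 of 6 in the MCM ring, 4 of 5 in nucleotide supply, 2 of 2 in chromatin, 2 of 3 in G1/S control, 3 of 6 in helicase activation, 2 of 5 in clamp and loader and 1 of 3 in licensing, against 0 of 4 for polymerases, 0 of 3 for RPA and 0 of 1 for ligase. Whether the roles differ from each other was not tested. Split by promoter words, the median log2 fold change was −0.19 for the 25 members with an E2F word, of which 13 fell, and −0.25 for the 7 without, of which 5 fell. Of tested genes with a promoter, 223 of the 1629 with an E2F word fell and 662 of the 5876 without one. Of the merged loci, the one holding FEN1 and FADS2 fell (log2 −0.20 ± 0.04, limma adjusted p = 0.0165), the one with UNG and ACACB had −0.25 ± 0.07 (adjusted p = 0.0559), and the other 5 lay between −0.14 and −0.03 and did not pass.

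The number of calls rested on all 8 libraries. With 1 library left out it was 16 and 6 without attached control 1 and 2, 11 and 6 without attached SPIB-knockdown 1 and 2, 7 and 6 without detached control 1 and 2, and 10 and 9 without detached SPIB-knockdown 1 and 2. CDC25A, RRM2, TYMS and MCM2 passed in all 8 of these fits and in the 6 other alternatives run. Apart from these genes, MCM4 and GINS2, each of the 19 calls was lost without any of several single libraries. A library named above beside an adjusted p is therefore an example. Quantile normalization, which gives every library the same distribution of values, left 8 of the 19 (MCM2, MCM4, GINS1, GINS2, RRM2, TYMS, CDC25A and ORC6) with a members' median of −0.15. It also turned the split of all genes from 737 higher and 1356 lower to 882 higher and 818 lower. The FPKM sum outside the mitochondrial locus moved with detachment, from 726865 to 743467 in attached and from 702735 to 708338 in detached libraries. Median of ratios scaling, which sets libraries to a common level, left 18 of the 19 with a members' median of −0.19, and TK1 missed (adjusted p = 0.0512).

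Detachment was also tested within each genotype. In control cells 2 members fell, TYMS (log2 −0.29, limma adjusted p = 0.0158) and RRM2 (−0.28, 0.0268), where 2.25% of all tested fell. In SPIB-knockdown cells 5 fell, RRM2 (−0.32, 0.011), TYMS (−0.23, 0.021), MCM7 (−0.19, 0.0317), CDC25A (−0.54, 0.0333) and MCM4 (−0.36, 0.038), where 5.06% of all tested fell. The medians over the 38 were −0.19 in control and −0.18 in SPIB-knockdown cells, with 36 and 34 negative values. No library is in both comparisons. Over the 38 members the log2 changes had a Pearson r of 0.65, against 0.42 over all tested genes. The members have higher levels and closer replicates than all tested genes, and what part this has in the r was not tested. The 32 members of shared sign (84.2%, against 68.9% of all tested genes) were all negative in both. With so many negative values in each, that count only restates the downward shift. No call of either comparison held without each library in turn: without attached control 2 the control-cell adjusted p was 0.115 for TYMS and 0.142 for RRM2, and without detached SPIB-knockdown 2 the knockdown-cell value was 0.0738 for RRM2, 0.112 for TYMS, 0.152 for MCM7, 0.101 for CDC25A and 0.153 for MCM4. Quantile normalization changed the split of all genes from 120 higher and 303 lower to 154 and 181 in control cells, and from 276 and 680 to 335 and 346 in knockdown cells. Under it 1 member was called in each, with medians over the 38 of −0.16 in control and −0.11 in knockdown cells. With a term for the libraries whose mitochondrial locus is listed at 0, the knockdown-cell adjusted p was 0.0609 for MCM4 and 0.0523 for MCM7.

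The difference between the 2 detachment effects was tested as an interaction. No member and no other gene passed (0 of 13438 by limma, 0% called), with 898 of all genes and 0 of the members at an unadjusted p under 0.05. The largest interaction values were 0.28 ± 0.18 for POLE2 and 0.25 ± 0.17 for GINS4, and both had their lowest value in the attached SPIB-knockdown library 2 (7.17 and 43.3 FPKM).

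On SPIB knockdown the median of these genes was near 0, and no member passed in this fit. In attached cells 0 of 38 were called against 1.85% of all tested, in detached cells 0 against 0.737%, and averaged over both states 0 against 4.24%. At an unadjusted p under 0.05 there were 3, 2 and 6 members (7.89%, 5.26% and 15.8%), against 17.1%, 11.9% and 19.7% of all tested genes. The median of the members was −0.01 in each, and no member had all 4 knockdown libraries apart from all 4 control ones, as 7.98% of all tested genes did. A p that misses the threshold does not show equal levels.

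The 6 members with an unadjusted p under 0.05 in the averaged comparison did not share a direction. MCM2 came nearest, with mean FPKM of 93.6 in control and 81.4 in SPIB-knockdown cells (log2 −0.20 ± 0.05, limma adjusted p = 0.0666, and 0.0302 with a replicate block, where MCM2 was the 1 member called). Its knockdown libraries were below the control ones within attached and within detached cells. CHAF1A (log2 −0.19 ± 0.06, adjusted p = 0.112) and CCNE2 (−0.26 ± 0.10, 0.187) also had lower means with the knockdown. RRM1 (0.19 ± 0.06, 0.15), RFC3 (0.15 ± 0.05, 0.175) and MCM7 (0.07 ± 0.03, 0.225) had higher ones. The attached and detached comparisons share no library. Over the 38 members their log2 changes had a Pearson r of 0.53, against 0.23 over all tested genes. Here too the part of the members' higher levels was not tested. Of the 38, 26 shared sign (68.4%), against 62% of all tested genes.

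**Figure D4:**
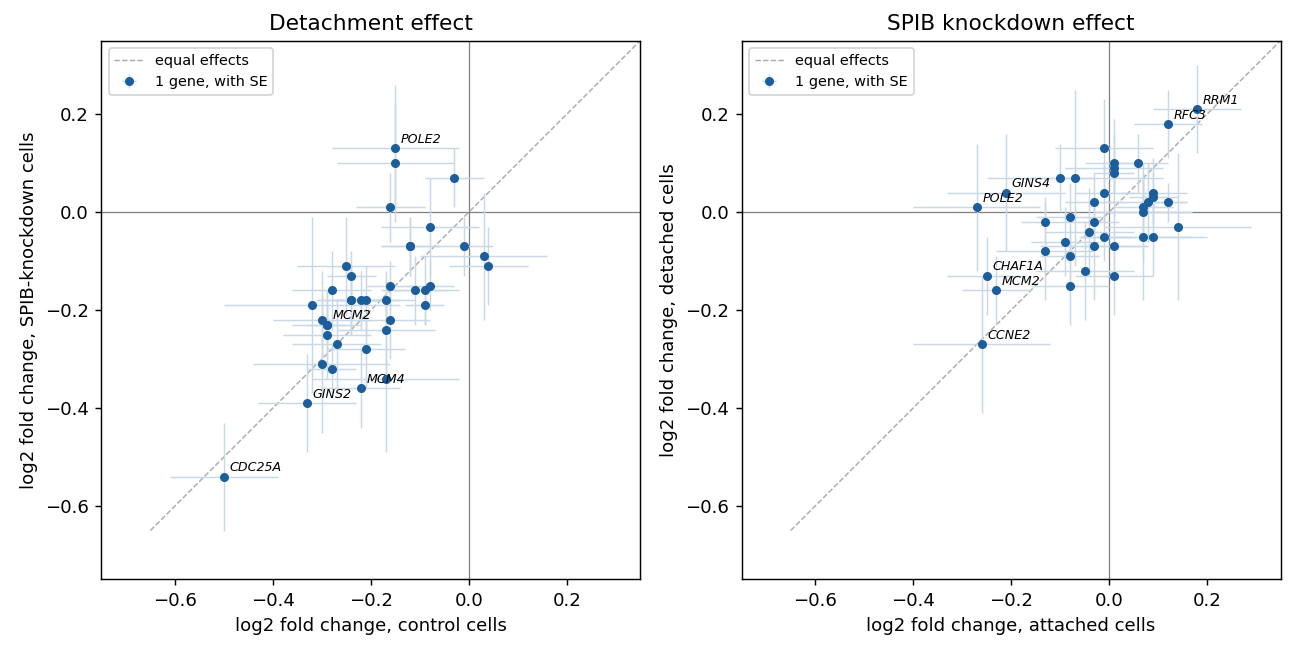
Each point is a member with its SE. On the left the detachment effect in control cells is on the x axis and that in SPIB-knockdown cells on the y axis, with 32 of 38 points below 0 on both; on the right the knockdown effect in attached and in detached cells is drawn the same way and the points scatter around 0, with MCM2, CHAF1A and CCNE2 at the lower left and RRM1 at the upper right.

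Related lists show how the 38 stand among cell cycle genes on detachment, averaged over both genotypes. Of 57 other replication and S phase genes tested, 13 fell (22.8%) and 0 rose, with a median of −0.11 and 50 negative values. Those that fell included GMNN, the CDT1 inhibitor geminin (log2 −0.28 ± 0.05, limma adjusted p = 0.0151), and MCMBP, a partner of MCM proteins (−0.26 ± 0.04, 0.00724). POLE3, a histone-fold subunit of polymerase epsilon (−0.31 ± 0.04, 0.00326), and HELLS, a chromatin remodeller (−0.32 ± 0.04, 0.00431), were also among them. TIPIN, a fork protection factor (−0.35), FAM111B (−0.34), TFDP1, the DNA-binding partner of E2F (−0.25), ATAD2 (−0.23), USP1 (−0.21) and MYBL2 (−0.21) fell too. So did ZWINT, a kinetochore gene kept on this list (−0.26), the mismatch repair gene MSH6 (−0.19) and TOPBP1 (−0.16). TIPIN had a log2 of −0.56 in control cells (limma adjusted p = 0.0443) and −0.14 in SPIB-knockdown cells (0.478), where its libraries overlapped. Its interaction of 0.42 ± 0.16 did not pass (limma adjusted p = 0.692), so a difference between genotypes is not shown. The control-cell call held in 2 of the 6 alternatives that kept all libraries.

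Of 43 mitosis genes, 3 rose (6.98%) and 4 fell (9.3%), near the 5.48% and 10.1% of all tested, with a median of −0.03. TTK, a spindle checkpoint kinase, had 25.8 and 27.0 FPKM in attached control, 21.9 and 19.1 in attached SPIB-knockdown, 32.2 and 30.8 in detached control and 27.7 and 28.6 in detached SPIB-knockdown libraries. It was higher in every detached than in every attached library and rose (log2 0.34 ± 0.05, limma adjusted p = 0.00766), as did the mitotic kinesin KIF20A (0.24 ± 0.05, 0.0146) and the phosphatase CDC25B (0.22 ± 0.04, 0.00955), a relative of CDC25A that acts at entry into mitosis. AURKB (−0.23), BUB3 (−0.21), ANLN (−0.21) and BIRC5 (−0.14) fell.

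Of 18 genes listed as G1 cyclins, CDK inhibitors and the RB family, 6 fell (33.3%) and 2 rose (11.1%), with a median of −0.10. The list also holds MYC, CDK4, CDK6 and E2F4, which are among the 6. MYC, which drives growth and G1 progression, had 90.6 and 87.0 FPKM in attached control, 98.9 and 94.7 in attached SPIB-knockdown, 67.1 and 66.5 in detached control and 63.1 and 57.2 in detached SPIB-knockdown libraries. The gap between attached and detached libraries was wide, and MYC fell by a log2 of 0.54 ± 0.04 (limma adjusted p = 0.000464). CDK6 (log2 −0.45 ± 0.07, limma adjusted p = 0.00586), CCND1, for cyclin D1 (−0.38 ± 0.06, 0.0066), E2F4 (−0.30 ± 0.04, 0.00326), CDK4 (−0.22 ± 0.05, 0.021) and CCND2 (−0.17 ± 0.04, 0.0267) fell too. The CDK inhibitors CDKN2C (0.26 ± 0.06, 0.0212) and CDKN1C (0.55, 0.0448) rose, the latter from 0.32 to 0.921 FPKM, a low level. The CDKN2C call held in 6 of the 6 alternatives that kept all libraries, but the CDKN1C call in only 1. Over all fits the log2 of CDKN1C ran from 0.46 to 1.39. Of these named genes MYC, CCND1, CDK6, E2F4, TTK, CDC25B, AURKB, MCMBP, POLE3, HELLS, USP1, ATAD2, MYBL2, MSH6 and ZWINT passed without each library in turn.

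**Figure D5:**
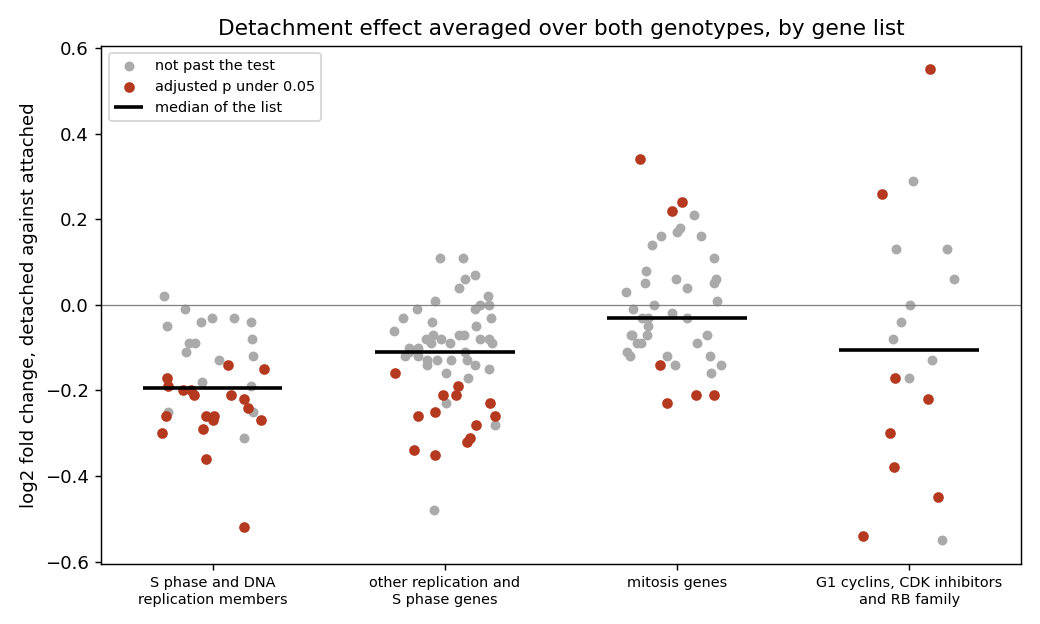
Each point is a gene, with its log2 fold change on detachment averaged over both genotypes on the y axis and its list on the x axis; red points passed the adjusted test and the bar is the median of the list. The medians are −0.19 for the 38 members, −0.11 for other replication and S phase genes, −0.03 for mitosis genes and −0.10 for the G1 list.

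The values carry limits from the tables. The sources do not state whether the libraries kept strand, so reads of overlapping genes cannot be told apart, and 24 of the 38 members overlap a locus with a mean of 1 FPKM or more. MCM7 overlaps COPS6 (277 FPKM, log2 −0.19, limma adjusted p = 0.0187) and TK1 overlaps SYNGR2 (139 FPKM, −0.15, 0.0187), so both neighbours fell on detachment as well. Loci overlapping RFC4 (EIF4A2, 202 FPKM, −0.13, 0.0273), POLE (PXMP2 merged with PGAM5, 92.6 FPKM, −0.20, 0.0491) and ORC1 (PRPF38A, 34.6 FPKM, −0.16, 0.0484) also fell. The locus overlapping RPA3 (GLCCI1 merged with RPA3-AS1, 10.9 FPKM) rose (0.38, 0.00894). The part of these neighbours in the members' values was not tested. TYMS overlaps ENOSF1 (27.2 FPKM, log2 −0.01) and MCM2 overlaps TPRA1 (31.9 FPKM, −0.07), neither of which passed, and CDC25A has no overlapping locus. Symbols of pseudogene form exist for 11 of the 45 listed genes, DUT with 8 and RRM2 with 3 among them, and how their reads were assigned is not given. In the authors' hg19 coordinates CDC25A is at chr3:48198636-48229928, RRM2 at chr2:10260539-10297181, TYMS at chr18:657172-682769 and MCM2 at chr3:127317066-127341285.

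Over the whole series, FPKM sums ran from 707883 to 786285 and 13022 to 13283 loci reached 1 FPKM. In 4 libraries (attached control 1, attached SPIB-knockdown 2 and library 1 of both detached groups) the mitochondrial locus was listed at 0, against 48800 to 49286 FPKM in the others, and with a term for those libraries 14 of the 38 fell. The calls of MCM6 (adjusted p = 0.0546), RFC3 (0.055), TK1 (0.06), CCNE1 (0.0625) and CHAF1A (0.0554) ended with that term. Of 7 listed squamous markers 4 had a locus of their own, and KRT5, KRT6A and KRT14 did not. Those 4 were low: TP63 was at 0.0328 to 0.318, DSG3 at up to 0.0366, PKP1 at up to 0.107 and SOX2 at 0.734 to 2.68 FPKM. The lung adenocarcinoma markers NAPSA (0.204 to 0.744 FPKM) and SFTPB (up to 0.0415 FPKM) were low too. Of the epithelial markers, EPCAM and CDH1 were below 1 FPKM in every library, KRT8 was at 11.5 to 20 and KRT18 at 46.2 to 90.0. On detachment averaged over both genotypes KRT8 (log2 −0.44 ± 0.08, limma adjusted p = 0.0104) and KRT18 (−0.75 ± 0.04, 0.000117) fell and SOX2 rose (0.49 ± 0.13, 0.0451), and their part in the results was not tested. Leukocyte markers summed to at most 0.427 FPKM.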

How the data were processed

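The authors deposited FPKM values in a table per library, made with HISAT, Cuffnorm and genome build hg19 per the submitters' processing notes, without versions. Read totals are not in such values, so the depth is unknown and no counting interval was given. Loci of the same symbol were summed (28590 to 27204). A gene was tested if it reached 1 FPKM in 2 of 8 libraries, which left 13438. limma 3.58.1 (lmFit, contrasts.fit, eBayes with trend, R 4.3.3) was fitted to log2(FPKM + 1), which understates changes of low genes, with 1 mean per group over all 8 libraries (residual degrees of freedom 4, prior 3.42). All tests were two-sided with Benjamini-Hochberg adjustment over all tested genes, called at 0.05. The procedure was tested on simulated data in which genes varied independently of each other. That test therefore does not cover genes that move together between replicates. The members, lists and promoter words were chosen with earlier results of these data known. Values per library are given for members called in any comparison, the MCM ring and the member of each role with the strongest statistic on detachment and on knockdown. Called genes of other lists are named. Alternatives were a pseudocount of 0.1, no filter, median of ratios scaling, quantile normalization, a replicate block, each library left out and, chosen after seeing the data, a term for libraries with the mitochondrial locus at 0. The labels' numbers 1 and 2 were not used to pair libraries.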

Additional observations from a re-analysis of the deposited data

How the results depend on the processing

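Under the 6 alternatives and with each library left out, the members' median on detachment stayed negative: −0.22 to −0.14 in control cells, −0.21 to −0.13 in SPIB-knockdown cells and −0.21 to −0.16 averaged, over the fits without 1 library. Calls among the 38 ran from 0 to 2, 0 to 4 and 6 to 16 in those fits, and calls among all genes from 56 to 265, 151 to 722 and 1101 to 1440. For SPIB knockdown 0 members were called without any library, the medians ran from −0.06 to 0.03 in attached cells, −0.04 to 0.03 in detached cells and −0.04 to 0.02 averaged, and all-gene calls from 37 to 144, 10 to 69 and 223 to 334. For the interaction they ran from 0 to 3, with medians of −0.04 to 0.06. Without the filter, 27204 loci were tested and 1, 2 and 8 members were called in control, knockdown and averaged detachment, with 190, 476 and 1274 calls in all, and knockdown gave 110, 61 and 333 in attached, detached and averaged cells. Under quantile normalization 1, 1 and 8 members were called, with a median of −0.11 in knockdown cells. With the mitochondrial term, chosen after seeing the data, 3 members were called in knockdown cells, and all-gene calls were 251 for detachment in control cells and 135 and 65 for knockdown in attached and detached cells. The cause of these shifts was not tested. A replicate block gave 4 members in control cells, 21 averaged and 1, MCM2, for knockdown averaged over both states (adjusted p = 0.0302). The replicate numbers did not clearly pair the libraries. Differences between replicates correlated between groups by −0.19 to 0.27 over all tested genes and by −0.04 to 0.46 over the members. The members' median difference, replicate 2 minus 1, was 0.03 to 0.08 log2 in the 4 groups. A correlation over genes does not show such a shared shift. Matched instead by whether the mitochondrial locus was listed at 0, a match chosen after seeing the data, the 6 correlations were 0.14 to 0.27 (−0.28 to 0.46 over the members). Values near 0 changed sign in averaged detachment: under quantile normalization CDT1 (0.02), GINS4 (0.03), LIG1 (0.03) and RPA2 (0.00), and over the fits without 1 library CDT1 (−0.09 to 0.02), GINS4 (−0.12 to 0.07), POLE2 (−0.11 to 0.09), LIG1 (−0.13 to 0.07), RPA3 (−0.02 to 0.06) and ORC1 (−0.10 to 0.00). Depth is unknown, and with 2 libraries a group small differences can go uncalled.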

Other observations

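On SPIB knockdown averaged over both states, 3 of 18 genes of the G1 list were called (16.7%), against 4.24% of all tested, with 2 of 18 called in attached and 0 of 18 in detached cells. Whether this list differs from the replication genes was not tested. CDKN1A, which encodes the CDK inhibitor p21, had 23.9 and 22.9 FPKM in attached control, 44.8 and 47.8 in attached SPIB-knockdown, 28.5 and 31.1 in detached control and 38.1 and 41.7 in detached SPIB-knockdown libraries. All 4 knockdown libraries were above all 4 control ones, and it rose (log2 0.68 ± 0.05 averaged over both states, limma adjusted p = 0.000864). The log2 change was 0.95 ± 0.07 in attached cells (adjusted p = 0.00309) and 0.41 ± 0.07 in detached cells (0.0694), and the interaction of −0.55 ± 0.10 did not pass (adjusted p = 0.488). CCND2, for cyclin D2, rose (0.21 ± 0.04, 0.0314), and the CDK inhibitor CDKN2C fell (−0.34 ± 0.06, 0.0199), as did the mitosis genes TTK (−0.25 ± 0.05, 0.0487) and CKAP2 (−0.28 ± 0.04, 0.0132), 2 of 43 on that list (4.65%) and so near the 4.24% of all tested. CDKN1A passed in every fit run, whereas the other calls were lost in fits without a library, with adjusted p of up to 0.105, 0.0767, 0.146 and 0.0607 in the order named over all fits.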
